A study of Mus musculus with 9 samples.

Results

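Whole cultures of C2C12 cells, an immortal mouse myoblast line, were examined on day 4 of differentiation into myotubes, which are multinucleated fibers. The genes examined were 43 genes of glutathione metabolism and of the antioxidant response controlled by the transcription factor NRF2. The 43 genes were taken from a list of glutathione transferases, glutathione synthesis enzymes and antioxidant enzymes. The rule itself uses no measured value, but the list was chosen with earlier results of these data known. All 43 were among the 52780 genes of the count table, and 39 of them were among the 19545 genes that held enough counts to be tested. MacroH2A1 is a histone variant that is made as the splice isoforms macroH2A1.1 and macroH2A1.2, and the study asked what each isoform does in myotubes. Cells were treated with control siRNA (si Ctrl), with siRNA against macroH2A1.1 (si mH2A1.1) or with siRNA against macroH2A1.2 (si mH2A1.2), with 3 samples for each condition. All siRNAs were used at 10 nM, all cells were wild type and of the same line, and RNA was taken on day 4 of differentiation. The control samples carry a wild-type label in GEO, and the scrambled siRNA given to them is described in the methods of the study. The labels number the samples of a condition from 1 to 3 but do not say whether they are separate cultures. The study calls its replicates biological and independent. The p-values measure the spread between these samples.

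Glutathione is a small peptide with a reactive thiol that cells use to neutralise peroxides and reactive chemicals. Glutathione transferases couple it to electrophiles, glutathione peroxidases spend it to reduce peroxides, and glutathione reductase restores it. NRF2, encoded by Nfe2l2, is held at a low level by its inhibitor KEAP1, is released by oxidants and electrophiles, and then binds antioxidant response elements near many of these genes. Muscle fibers produce reactive oxygen species when they contract and carry these enzymes to remove them.

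Sequencing gave between 36924252 and 42223108 counts per sample, of which the 43 genes held between 0.164% and 0.305%. Levels are given as counts per 1000000 counts (CPM) scaled by the TMM method, and 3 counts corresponded to between 0.0691 and 0.0826 CPM. Such a floor covers counting error only. A gene was called higher or lower at an adjusted p of 0.05 or less by the quasi-likelihood test of edgeR with Benjamini-Hochberg adjustment over all 19545 genes, and fold changes are log2 values with their standard error (SE). The targeted gene H2afy, counted over both isoforms together, was at 56.3, 62.4 and 61.0 CPM in the si Ctrl samples, at 38.8, 30.0 and 30.9 CPM with si mH2A1.1 and at 46.8, 47.2 and 43.2 CPM with si mH2A1.2. All 6 knockdown samples were below all 3 control samples. The log2 fold change was -0.85 (adjusted p = 0.00331) with si mH2A1.1 and -0.39 (adjusted p = 0.108) with si mH2A1.2, and gene counts do not tell which isoform was reduced.

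Markers of differentiated muscle were abundant in every sample. The summed level of 8 of them lay between 12596 and 17195 CPM in si Ctrl, between 12070 and 12765 CPM with si mH2A1.1 and between 11411 and 13858 CPM with si mH2A1.2. Most of the sum is Myh3 and Acta1. Myog, a regulator of muscle differentiation, was lower with si mH2A1.1 (log2 fold change -0.66, adjusted p = 0.0204 by edgeR), and Tnnt3 (-0.96, adjusted p = 0.028) and Des (-0.62, adjusted p = 0.0466), proteins of the contractile apparatus and of its filaments, were lower in the macroH2A1.2 knockdown. Between the knockdowns Ckm, Tnnt3 and Des were higher in si mH2A1.1 (1.14, 0.73 and 1.07) and Myog was lower (-0.46). The 5 listed markers of undifferentiated or dividing myoblasts (Pax7, Myf5, Mki67, Top2a and Ccnb1) summed to between 242 and 386 CPM in si Ctrl, between 361 and 656 CPM with si mH2A1.1 and between 191 and 278 CPM with si mH2A1.2. By edgeR none of the 5 was called in si mH2A1.1 against si Ctrl, where 3 were higher at an unadjusted p below 0.05, Myf5 alone was lower in si mH2A1.2 against si Ctrl, and all 5 were higher in si mH2A1.1 than in si mH2A1.2. Among 4 fibroblast markers, Lum and Col1a1 were lower with si mH2A1.1 while Dcn and Pdgfra had log2 fold changes of 0.06 and 0.11, not called, and in si mH2A1.2 against si Ctrl the 4 lay between -0.52 and 1.41, none with an adjusted p of 0.05 or less and 3 higher at an unadjusted p below 0.05. Most of their sum is Col1a1, and the sum of the list was between 503 and 1329 CPM there, between 2414 and 3757 CPM in si Ctrl and between 6970 and 9932 CPM with si mH2A1.2. Of the 4 macrophage markers only Cd68, which other cells also express, passed the filter, and it was higher with si mH2A1.1 (log2 fold change 1.62, adjusted p = 0.00565). Ptprc, Csf1r and Adgre1 stayed below 0.5 CPM in every sample, and Adgre1 was at 0 in 8 of 9. The 3 endothelial markers summed to no more than 1.41 CPM and the 3 adipocyte markers to no more than 1.55 CPM in any sample. In these bulk samples fewer cells of a type and less RNA per cell cannot be told apart, and the part of the muscle, myoblast and fibroblast markers in the results that follow was not tested.

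In the comparison of si mH2A1.1 with si Ctrl, 10 of the 39 tested genes were higher and 1 was lower, against 6.18% of all tested genes higher and 4.93% lower. Of the 10, Gsta3 passed the filter only through the si mH2A1.1 samples, and the split of reads between Gsta1 and Gsta2 is uncertain. Knockdown of macroH2A1.2 gave 1 gene higher (Sod3) and 0 lower, against 1.37% and 0.982% of all genes, and 2 higher (Gpx3 and Sod3) and 1 lower (Sod2) with the replicate number as a block. For the count of 0 from edgeR, 5 genes were lower at an unadjusted p below 0.05, and DESeq2 called 2 (Gsta1 and Sod2). Of all 19545 tested genes, 3109 had an unadjusted p below 0.05 in that comparison, both directions together. Set directly against si mH2A1.2, si mH2A1.1 had 15 genes higher and 1 lower, against 12.0% and 10.5% of all genes. The median log2 fold change over the 39 genes was 0.30, -0.12 and 0.42 in these comparisons, and over all genes it was between -0.01 and 0.00. The comparisons with si Ctrl use the same control samples, so they are given side by side and not as independent results.

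**Figure D1:**
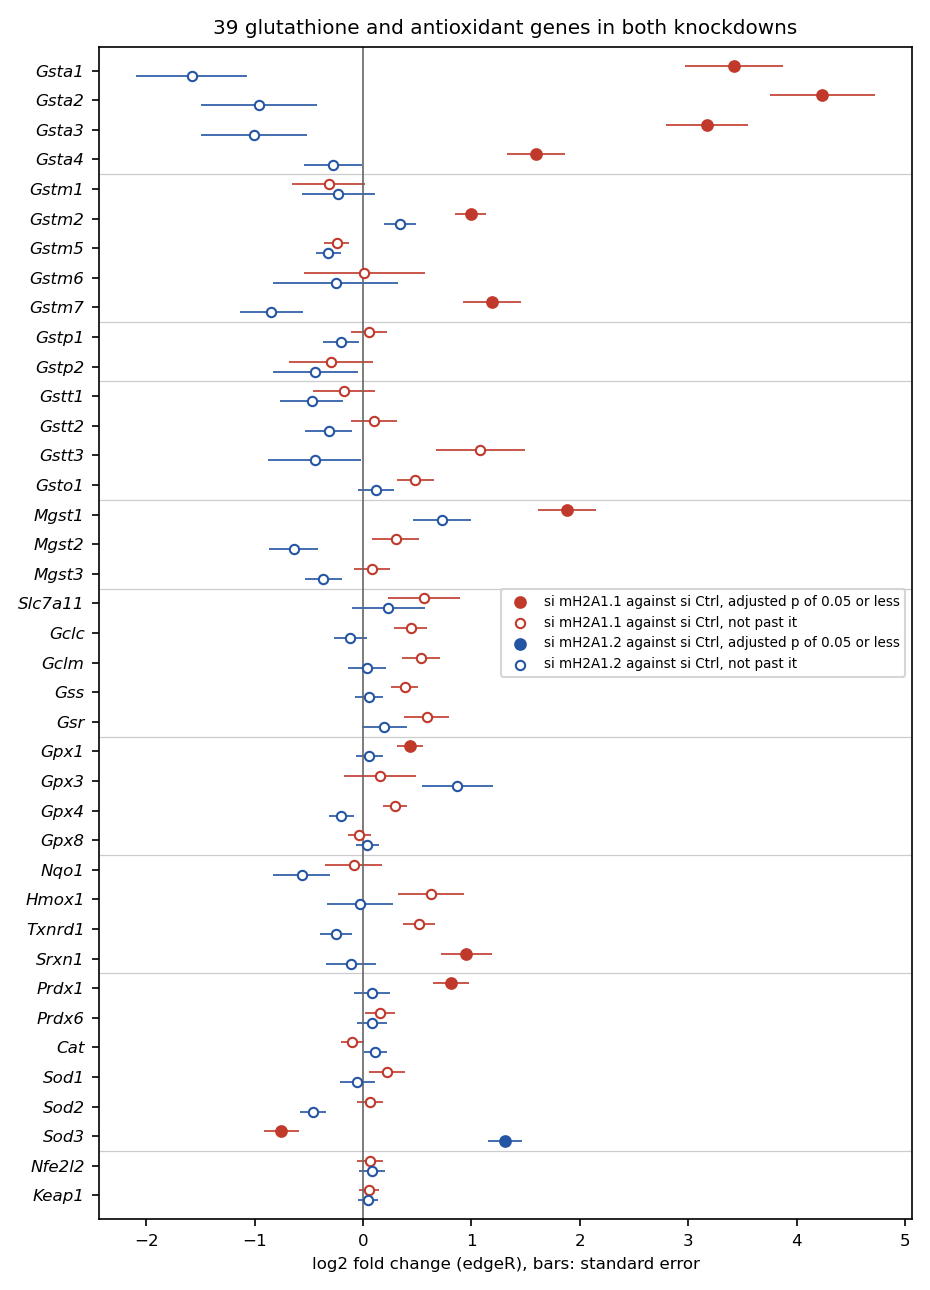
Log2 fold changes with standard errors of the 39 tested genes in si mH2A1.1 (red) and si mH2A1.2 (blue) against si Ctrl, grouped by class, with filled points for an adjusted p of 0.05 or less. With si mH2A1.1, Gsta1, Gsta2 and Gsta3 stand farthest to the right, from 3.18 to 4.24, followed by Mgst1 at 1.88 and Gsta4 at 1.60, and Sod3 is the gene with filled points on opposite sides of 0.

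The same order appeared when single samples were set against each other. In 14 of the 39 genes all 3 si mH2A1.1 samples were above all 3 si Ctrl samples and in 2 they were below, where 17.5% and 16.7% of all tested genes did so. With si mH2A1.2 against si Ctrl, 2 genes were above (Gpx3 and Sod3) and 8 below (Gsta1, Gsta3, Gstm5, Gstm7, Mgst2, Gpx4, Txnrd1 and Sod2), where the shares of all genes were 11.7% and 10.8%. Between the knockdowns, 17 genes were above in si mH2A1.1 and 1 below, where the shares were 20.3% and 19.4%. A permutation of 3 samples against 3 cannot give an exact two-sided p under 0.1.

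The promoters of 5 of the called genes are shown because the alpha class moved most, and because Gsta3, Mgst1 and Prdx1 hold the core of the antioxidant response element. Gstm7 and Srxn1 were also called and hold it, and are not shown. For Mgst1 only a window with a match was printed. Windows run from 250 bases before to 50 bases after a RefSeq start of the gene (build GRCm38.p6), are written 5′ to 3′ on the strand of the gene, and have a match to TGACNNNGC on either strand in capitals. The windows are Gsta1 at chr9:78230419-78230718 (+), Gsta2 at chr9:78347096-78347395 (-), Gsta3 at chr1:21240335-21240634 (+), Mgst1 at chr6:138140277-138140576 (+) and Prdx1 at chr4:116685349-116685648 (+).
Gsta1: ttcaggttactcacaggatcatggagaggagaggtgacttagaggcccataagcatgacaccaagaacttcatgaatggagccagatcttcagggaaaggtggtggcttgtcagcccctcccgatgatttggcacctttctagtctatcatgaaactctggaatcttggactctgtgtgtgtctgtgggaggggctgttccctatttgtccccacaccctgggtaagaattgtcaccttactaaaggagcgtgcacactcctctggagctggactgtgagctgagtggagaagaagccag
Gsta2: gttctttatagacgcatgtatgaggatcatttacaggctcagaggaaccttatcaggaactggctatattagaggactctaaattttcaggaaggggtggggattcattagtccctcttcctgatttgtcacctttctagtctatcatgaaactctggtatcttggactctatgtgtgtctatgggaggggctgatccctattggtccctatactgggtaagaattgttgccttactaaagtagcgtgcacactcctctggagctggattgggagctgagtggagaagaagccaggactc
Gsta3: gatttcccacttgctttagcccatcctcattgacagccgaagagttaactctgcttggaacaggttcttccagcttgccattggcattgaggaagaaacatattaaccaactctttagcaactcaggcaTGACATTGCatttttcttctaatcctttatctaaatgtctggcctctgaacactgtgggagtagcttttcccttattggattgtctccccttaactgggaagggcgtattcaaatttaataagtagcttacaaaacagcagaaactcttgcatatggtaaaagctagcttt
Mgst1: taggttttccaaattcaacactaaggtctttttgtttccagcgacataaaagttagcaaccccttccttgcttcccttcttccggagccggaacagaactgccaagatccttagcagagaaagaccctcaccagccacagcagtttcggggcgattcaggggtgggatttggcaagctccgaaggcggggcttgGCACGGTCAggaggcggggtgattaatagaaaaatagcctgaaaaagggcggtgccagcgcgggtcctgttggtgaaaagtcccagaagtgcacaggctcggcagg
Prdx1: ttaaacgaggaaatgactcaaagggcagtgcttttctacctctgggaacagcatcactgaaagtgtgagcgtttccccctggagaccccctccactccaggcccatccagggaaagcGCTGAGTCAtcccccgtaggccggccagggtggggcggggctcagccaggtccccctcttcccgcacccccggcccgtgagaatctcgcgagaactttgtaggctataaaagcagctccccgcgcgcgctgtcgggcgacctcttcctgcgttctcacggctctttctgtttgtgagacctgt
The Gsta1 and Gsta2 windows were identical at 238 of 300 bases (79.3%) in a global alignment, against 53.3% to 61.7% for the other pairs of these 5 windows. Neither held TGACNNNGC. The match lay 121 bases before the start on the strand of the gene in Gsta3 (TGACATTGC), and on the opposite strand 56 bases before the start in Mgst1 (TGACCGTGC) and 133 bases before it in Prdx1 (TGACTCAGC).

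RefSeq windows were at hand for 36 of the 43 genes, and Gsta4, Gstt2, Gclc, Gsr, Hmox1, Prdx6 and Sod3 were without one. The letters TGACNNNGC were in windows of 10 of these 36 genes (27.8%), against 3781 of 27025 genes with a window (14.0%), or 12.4% of the 32851 windows. The 10 genes were Gsta3, Gstm5, Gstm7, Mgst1, Gclm, Txnrd1, Srxn1, Prdx1, Sod1 and Nfe2l2. Of the 9 genes with a window that were higher with si mH2A1.1, 5 held the letters (Gsta3, Gstm7, Mgst1, Srxn1 and Prdx1). Among these, Gsta3 passed the filter only through the si mH2A1.1 samples. The AP-1 letters TGACTCA were found for 6 of the 36 genes (Gstm5, Gstp1, Gstp2, Mgst2, Srxn1 and Prdx1), against 5.95% of all genes, and 1 of the Prdx1 matches overlaps its antioxidant response element match. A match of letters is a description of the sequence and no measurement of binding.

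The alpha class of glutathione transferases, cytosolic enzymes that conjugate electrophiles and also reduce lipid peroxides, had all 4 of its members higher with si mH2A1.1. Of all tested genes, 6.18% were higher. Gsta1 and Gsta2 share reads, and Gsta3 passed the filter only through the si mH2A1.1 samples, so the 4 are not separate results. Gsta4, Gsta1 and Gsta2 lie near each other on chromosome 9 (GRCm38), at chr9:78182774-78209349, chr9:78230656-78242684 and chr9:78331018-78355788, while Gsta3 lies at chr1:21240589-21265661. Gsta1 was at 2.09, 1.76 and 1.13 CPM in the si Ctrl samples, at 24.0, 8.20 and 21.4 CPM with si mH2A1.1 and at 0.275, 0.913 and 0.457 CPM with si mH2A1.2. The 3 conditions did not overlap, with si mH2A1.1 at the top and si mH2A1.2 at the bottom. The log2 fold change with si mH2A1.1 was 3.43 (SE 0.45, adjusted p = 0.00346). With si mH2A1.2 it was -1.58 (SE 0.51, adjusted p = 0.155), and DESeq2 gave an adjusted p of 0.0121 for that fall.

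Gsta2 showed 1.79, 1.79 and 0.438 CPM in si Ctrl, 34.7, 14.8 and 26.2 CPM with si mH2A1.1 and 0.606, 0.992 and 0.457 CPM with si mH2A1.2. Every si mH2A1.1 sample was above every other sample, while si Ctrl and si mH2A1.2 overlapped. On the log2 scale the difference from si Ctrl was 4.24 (SE 0.49, adjusted p = 0.00227) with si mH2A1.1, the highest among the 39 genes, and -0.96 (SE 0.53, adjusted p = 0.429) with si mH2A1.2. Gsta3 was rare, at 10, 7 and 14 counts in si Ctrl, 142, 67 and 100 counts with si mH2A1.1 and 5, 7 and 3 counts with si mH2A1.2. The fold change of Gsta3 with si mH2A1.1 was 3.18 on the log2 scale (SE 0.38, adjusted p = 0.00242). No si mH2A1.2 sample reached the minimum count of the filter, and Gsta3 passed it only through the si mH2A1.1 samples.

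Gsta4 encodes the alpha enzyme known for clearing hydroxynonenal, an aldehyde formed from peroxidised lipids, and was the most abundant of the class per kilobase of exon in every condition. It was at 28.5, 36.3 and 30.0 CPM in si Ctrl, at 132, 63.8 and 90.9 CPM with si mH2A1.1 and at 19.1, 34.8 and 24.4 CPM with si mH2A1.2. Again the si mH2A1.1 samples stood above all others, and si Ctrl and si mH2A1.2 overlapped. In log2 terms the change from si Ctrl was 1.60 (SE 0.27, adjusted p = 0.00761) with si mH2A1.1 and -0.28 (SE 0.27, adjusted p = 0.688) with si mH2A1.2. Per kilobase of exon the order in si Ctrl was Gsta4 at 25.0, Gsta1 at 1.74, Gsta2 at 1.14 and Gsta3 at 0.0626 CPM. With si mH2A1.1 it was Gsta4 at 75.5, Gsta2 at 21.5, Gsta1 at 18.7 and Gsta3 at 0.573 CPM per kilobase, and Gsta1 and Gsta2 were within the spread of their samples of each other.

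Gsta1 and Gsta2 share sequence with each other and with the neighboring genes Gm3776 and Gm10639, so the split of reads among them is uncertain. Of the 50-base windows in Gsta1 transcripts, 90.5% also occur in another gene, and 75.7% of all its windows occur in Gm3776 and 46.6% in Gsta2. In Gsta2 the share was 49.8%, whereas it was 0.273% in Gsta3 and 0 in Gsta4. Other genes with a call had smaller shares, the highest being 34.7% in Gpx4, 21.0% in Sod2 and 12.5% in Gstt3. When the counts of all 4 near-identical genes were summed, the samples held 148, 137 and 73 counts in si Ctrl, 2635, 1002 and 2264 counts with si mH2A1.1 and 36, 76 and 40 counts with si mH2A1.2. The si mH2A1.1 samples were above all others, while si Ctrl and si mH2A1.2 overlapped through si Ctrl replicate 3 and si mH2A1.2 replicate 2. The sum had a log2 fold change of 3.90 (SE 0.41, adjusted p = 0.00175) with si mH2A1.1 and of -1.22 (SE 0.43, adjusted p = 0.192) with si mH2A1.2. In si mH2A1.1 against si mH2A1.2 it was 5.13 (SE 0.45, adjusted p = 0.000168). The sum was chosen after seeing the data.

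**Figure D2:**
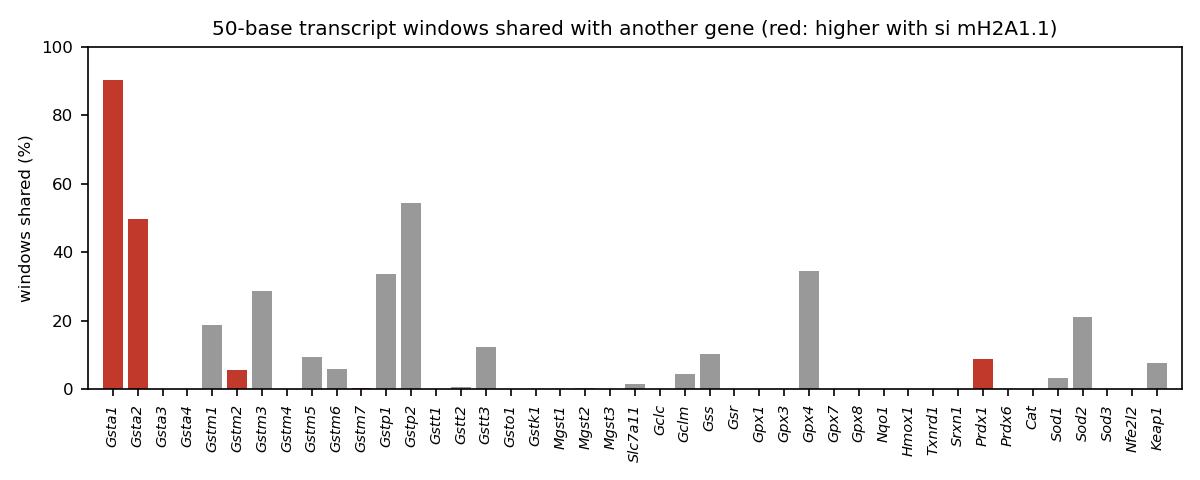
Share of the 50-base windows of each gene's transcripts that also occur in another gene, in percent, for the 43 genes, with genes higher with si mH2A1.1 in red. Gsta1 stands highest at 90.5%, followed by Gstp2 at 54.3% and Gsta2 at 49.8%, while Gsta4, Mgst1, Gpx1 and Srxn1 are at 0.

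The mu class was mixed. Its 7 genes lie within chr3:107895821-108044894, and 5 of them were tested, of which 2 were higher with si mH2A1.1 and none lower. Gstm2 was at 15.1, 18.2 and 15.9 CPM in si Ctrl, at 33.8, 34.3 and 29.6 CPM with si mH2A1.1 and at 21.3, 24.2 and 16.7 CPM with si mH2A1.2. It was the called transferase with the least spread among its si mH2A1.1 samples relative to their mean, and all of them were above all si Ctrl and si mH2A1.2 samples. Gstm2 had a log2 fold change of 0.99 (SE 0.14, adjusted p = 0.0046) with si mH2A1.1 and 0.34 (SE 0.14, adjusted p = 0.279) with si mH2A1.2. Gstm7 was at 0.803, 0.853 and 1.01 CPM in si Ctrl, at 2.54, 1.56 and 1.98 CPM with si mH2A1.1 and at 0.578, 0.548 and 0.349 CPM with si mH2A1.2, so that the 3 conditions did not overlap. Gstm7 had a log2 fold change of 1.19 (SE 0.27, adjusted p = 0.0228) with si mH2A1.1 and -0.85 (SE 0.29, adjusted p = 0.181) with si mH2A1.2. The call for Gstm7 was lost without any 1 of the 3 si Ctrl samples and without si mH2A1.1 replicate 1 or 3, with log2 fold changes of 1.00 to 1.28 and adjusted p from 0.0572 to 0.0852.

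No other mu gene was called. Gstm1, the most abundant of the class per kilobase of exon, varied 49.4, 104 and 67.1 CPM within si Ctrl and 32.1, 87.9 and 68.1 CPM within si mH2A1.2, and its log2 fold change with si mH2A1.1 was -0.32 (SE 0.33, adjusted p = 0.56). Gstm5 had log2 fold changes of -0.24 and -0.32, and Gstm6 of 0.01 and -0.25, in si mH2A1.1 and si mH2A1.2 against si Ctrl, none past the threshold. Gstm3 held 1, 1 and 0 counts in si Ctrl, 8, 3 and 8 counts with si mH2A1.1 and 1, 0 and 0 counts with si mH2A1.2, and Gstm4 held at most 2 counts in any sample, so neither was tested. The Gstm3 counts were above all others in the si mH2A1.1 samples.

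Neither pi-class gene was called. Gstp1, the cytosolic transferase with the highest level per kilobase of exon (132 CPM per kilobase in si Ctrl), ranged from 137 to 240 CPM over the 9 samples with log2 fold changes of 0.06 (si mH2A1.1 against si Ctrl) and -0.20 (si mH2A1.2 against si Ctrl). Gstp2 shares 54.3% of its windows with other genes, mostly Gstp1, and its log2 fold changes were -0.29 and -0.44. In the theta, omega and kappa classes no gene was called against si Ctrl. Gstt3 was at 1.26, 1.49 and 0.799 CPM in si Ctrl, at 2.86, 2.49 and 2.17 CPM with si mH2A1.1 and at 1.07, 1.23 and 0.295 CPM with si mH2A1.2. All si mH2A1.1 samples were above the rest, and the difference was called between the knockdowns (log2 fold change 1.53, SE 0.42, adjusted p = 0.0265) but not against si Ctrl (1.08, SE 0.41, adjusted p = 0.109). Without si mH2A1.1 replicate 1 or 3 the first adjusted p was 0.0878 or 0.0528. With the replicate number as a block, the difference from si Ctrl was 1.14 (adjusted p = 0.0344 by edgeR). Gsto1, which also reduces oxidised ascorbate, had a log2 fold change of 0.48 (SE 0.17, adjusted p = 0.0898) with si mH2A1.1, while Gstt1 and Gstt2 were at -0.18 and 0.10. Gstk1, the mitochondrial and peroxisomal enzyme, had between 2 and 15 counts and was not tested.

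Among the 3 membrane-bound transferases, Mgst1 was higher with si mH2A1.1. This enzyme of the endoplasmic reticulum and the outer mitochondrial membrane protects membrane lipids from peroxidation. Mgst1 was at 3.53, 6.58 and 4.20 CPM in si Ctrl, at 22.5, 13.3 and 16.8 CPM with si mH2A1.1 and at 6.19, 8.98 and 8.57 CPM with si mH2A1.2. Every si mH2A1.1 sample exceeded every other sample. For Mgst1 the log2 fold change was 1.88 (SE 0.27, adjusted p = 0.00429) with si mH2A1.1, 0.73 (SE 0.27, adjusted p = 0.206) with si mH2A1.2 and 1.15 (SE 0.26, adjusted p = 0.0122) between the knockdowns. Without si mH2A1.1 replicate 1 the last value was 0.93 with an adjusted p of 0.0502. Unlike the alpha genes, Mgst1 had a positive value in si mH2A1.2 as well. Mgst2 was at 2.11, 2.90 and 1.88 CPM in si Ctrl, at 2.49, 3.38 and 2.63 CPM with si mH2A1.1 and at 1.43, 1.44 and 1.56 CPM with si mH2A1.2. The si mH2A1.2 samples were the lowest, and the call was between the knockdowns (log2 fold change 0.94, SE 0.22, adjusted p = 0.0147), with an adjusted p of 0.06 without si mH2A1.2 replicate 2. Mgst3 had log2 fold changes of 0.08 and -0.37 against si Ctrl, neither past the threshold. Between the knockdowns Mgst3 had 0.45 (adjusted p = 0.0824 by edgeR), and 0.46 (adjusted p = 0.0113) with the replicate number as a block.

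**Figure D3:**
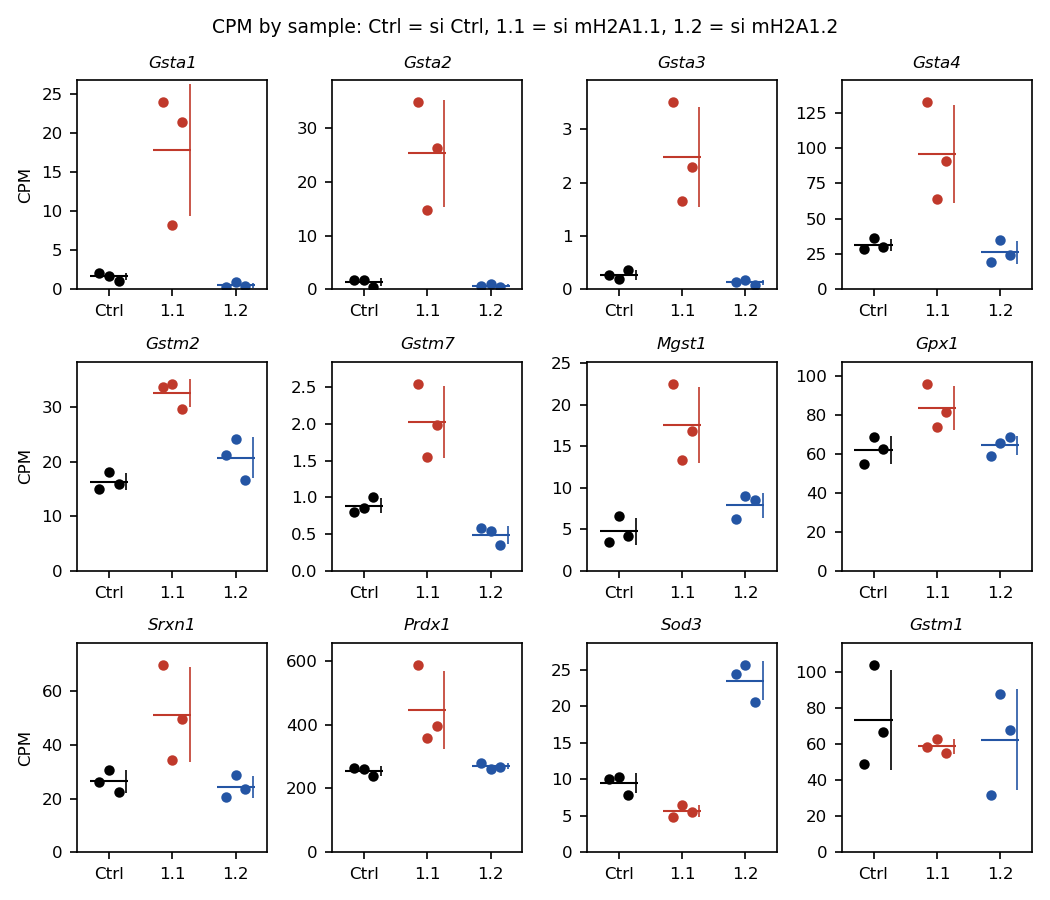
CPM in each sample of the 10 genes that were higher with si mH2A1.1, of Sod3 and, for contrast, of Gstm1, with horizontal lines at the mean and vertical lines of 1 SD (3 samples per condition, axes from 0). In Gsta4 the si mH2A1.1 samples reach 132 CPM and lie above all others, whereas Sod3 is lowest with si mH2A1.1 (4.84 to 6.47 CPM) and highest with si mH2A1.2 (20.6 to 25.6 CPM).

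Genes of glutathione synthesis and recycling had positive log2 fold changes with si mH2A1.1 in 5 of 5 cases, from 0.38 to 0.59, where the median over all tested genes was -0.01. None passed the threshold against si Ctrl in the main fit. Gclc, the catalytic subunit of the rate-limiting glutamate-cysteine ligase, was at 33.7, 34.7 and 33.5 CPM in si Ctrl, at 56.3, 35.7 and 46.1 CPM with si mH2A1.1 and at 27.7, 32.4 and 33.8 CPM with si mH2A1.2. The si mH2A1.1 samples were above all others, replicate 2 by little. For Gclc the log2 fold change was 0.44 (SE 0.15, adjusted p = 0.0827) against si Ctrl and 0.56 (SE 0.15, adjusted p = 0.0248) between the knockdowns. The latter call was lost without si mH2A1.1 replicate 1 or 3 or si mH2A1.2 replicate 1 or 2 (0.38 to 0.58, adjusted p from 0.0661 to 0.088). Gclm, the modifier subunit, was at 17.2, 21.0 and 17.2 CPM in si Ctrl, at 32.2, 20.1 and 28.2 CPM with si mH2A1.1 and at 16.6, 21.6 and 18.7 CPM with si mH2A1.2, and the conditions overlapped because of si mH2A1.1 replicate 2. For Gclm the log2 fold change was 0.54 (SE 0.18, adjusted p = 0.0742) with si mH2A1.1 and 0.04 (SE 0.18, adjusted p = 0.949) with si mH2A1.2. DESeq2 called Gclm higher with si mH2A1.1 against si Ctrl (0.54, adjusted p = 0.0387) and between the knockdowns (0.50, adjusted p = 0.0427). By edgeR the latter had an adjusted p of 0.0658.

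Slc7a11, the cystine importer that supplies cysteine for this pathway, was at 13.4, 9.01 and 8.22 CPM in si Ctrl, at 12.2, 18.3 and 14.8 CPM with si mH2A1.1 and at 19.2, 9.86 and 7.06 CPM with si mH2A1.2. The conditions overlapped, and the log2 fold changes of 0.56 (adjusted p = 0.291) and 0.23 (adjusted p = 0.801) were not past the threshold. Glutathione synthetase (Gss) had a log2 fold change of 0.38 (adjusted p = 0.0773) and glutathione reductase (Gsr) of 0.59 (adjusted p = 0.0909) with si mH2A1.1. Gss had 0.37 (adjusted p = 0.048 by edgeR) with the replicate number as a block. Without si mH2A1.1 replicate 2, Gclc, Gclm and Gsr were called higher against si Ctrl, with log2 fold changes of 0.59, 0.71 and 0.79.

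Of the glutathione peroxidases, Gpx1, the abundant cytosolic enzyme, was at 54.8, 68.9 and 62.6 CPM in si Ctrl, at 96.1, 73.9 and 81.5 CPM with si mH2A1.1 and at 59.3, 65.6 and 69.0 CPM with si mH2A1.2. The si mH2A1.1 samples were above all others by a small margin. Gpx1 had a log2 fold change of 0.43 (SE 0.12, adjusted p = 0.0476), just inside the threshold, and the call was lost in 9 of 15 other settings. These included leaving out any 1 of the si Ctrl samples, si mH2A1.1 replicate 1 or 3, or si mH2A1.2 replicate 2 or 3 (0.33 to 0.51, adjusted p from 0.0606 to 0.15). Gpx4, which reduces peroxidised phospholipids, was at 151, 176 and 152 CPM in si Ctrl, at 224, 176 and 189 CPM with si mH2A1.1 and at 131, 147 and 139 CPM with si mH2A1.2. It was called between the knockdowns (log2 fold change 0.50, SE 0.11, adjusted p = 0.0131) and not against si Ctrl (0.30 and -0.20), and 34.7% of its windows occur in a pseudogene.

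Gpx3, the secreted peroxidase, was at 7.42, 14.2 and 16.8 CPM in si Ctrl, at 10.5, 14.0 and 18.3 CPM with si mH2A1.1 and at 18.0, 18.8 and 33.5 CPM with si mH2A1.2. All si mH2A1.2 samples were above the si Ctrl samples. Against si Ctrl, Gpx3 had a log2 fold change of 0.87 (SE 0.33, adjusted p = 0.229) in si mH2A1.2, and with the replicate number as a block it was 0.89 (adjusted p = 0.0185). In si mH2A1.1 against si mH2A1.2 it was -0.72 (adjusted p = 0.147 by edgeR), and -0.70 (adjusted p = 0.0108) with that block. Gpx8 differed by no more than 0.07 on the log2 scale in any comparison. Gpx7 held at most 8 counts in any sample and was not tested.

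Of Nqo1, Hmox1, Srxn1 and Txnrd1, 4 genes usually read as markers of NRF2 activity, 1 was higher with si mH2A1.1, none was called with si mH2A1.2 and 2 were higher in si mH2A1.1 than in si mH2A1.2, with median log2 fold changes of 0.57, -0.18 and 0.71. At an unadjusted p below 0.05, 0 of the 4 were higher or lower with si mH2A1.2. Nqo1, a quinone reductase, was at 10.1, 16.5 and 11.7 CPM in si Ctrl, at 15.2, 9.14 and 11.7 CPM with si mH2A1.1 and at 6.36, 11.5 and 7.98 CPM with si mH2A1.2. The conditions overlapped, and the log2 fold changes were -0.09 (SE 0.26, adjusted p = 0.854) and -0.57 (SE 0.26, adjusted p = 0.334). Hmox1, the heme-degrading oxygenase, was at 44.6, 69.8 and 62.9 CPM in si Ctrl, at 123, 68.4 and 83.0 CPM with si mH2A1.1 and at 34.6, 57.0 and 81.9 CPM with si mH2A1.2, with log2 fold changes of 0.63 (SE 0.30, adjusted p = 0.196) and -0.03 (SE 0.30, adjusted p = 0.976). Its conditions overlapped too.

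Srxn1 and Txnrd1 were the members of this group with a call. Srxn1, sulfiredoxin, repairs overoxidised peroxiredoxins and was at 26.3, 30.6 and 22.4 CPM in si Ctrl, at 69.6, 34.4 and 49.6 CPM with si mH2A1.1 and at 20.8, 28.9 and 23.7 CPM with si mH2A1.2. The si mH2A1.1 samples were the highest 3 of the 9. Srxn1 had a log2 fold change of 0.95 (SE 0.23, adjusted p = 0.0293) with si mH2A1.1, -0.11 (SE 0.23, adjusted p = 0.866) with si mH2A1.2 and 1.07 (SE 0.23, adjusted p = 0.0104) between the knockdowns. The call of Srxn1 against si Ctrl was lost without any 1 si Ctrl sample and without si mH2A1.1 replicate 1 or 3 (0.67 to 1.07, adjusted p from 0.0661 to 0.0982). Txnrd1, cytosolic thioredoxin reductase, was at 157, 168 and 140 CPM in si Ctrl, at 276, 178 and 209 CPM with si mH2A1.1 and at 127, 134 and 130 CPM with si mH2A1.2. The 3 conditions did not overlap. A log2 fold change of 0.51 with si mH2A1.1 (SE 0.15, adjusted p = 0.0516) lay just outside the threshold. It was inside with DESeq2 (adjusted p = 0.0174), the newer edgeR form (0.0475), no filter on low counts (0.0359), the replicate number as a block (0.0399) and without si mH2A1.1 replicate 2 (0.0161). For Txnrd1 the difference between the knockdowns was called (0.76, SE 0.15, adjusted p = 0.00626).

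No call was made for the regulators themselves. Nfe2l2 was at 132, 136 and 118 CPM in si Ctrl, at 122, 159 and 122 CPM with si mH2A1.1 and at 139, 140 and 130 CPM with si mH2A1.2. Keap1 was at 32.4, 34.3 and 37.7 CPM in si Ctrl, at 36.5, 34.9 and 37.4 CPM with si mH2A1.1 and at 34.2, 35.4 and 38.3 CPM with si mH2A1.2. All conditions overlapped for both genes. The log2 fold changes of Nfe2l2 were 0.06 (SE 0.12, adjusted p = 0.755) and 0.08 (SE 0.12, adjusted p = 0.799), and those of Keap1 were 0.06 (SE 0.09, adjusted p = 0.715) and 0.05 (SE 0.09, adjusted p = 0.858). NRF2 is regulated mainly through the stability of the protein, which was not measured.

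**Figure D4:**
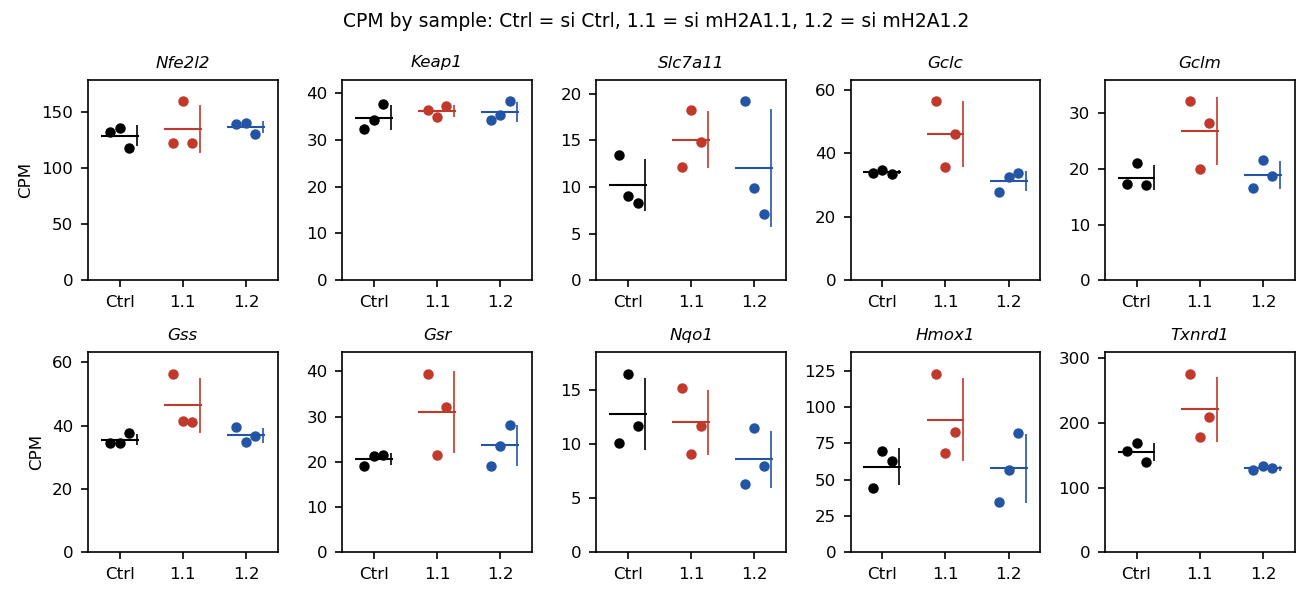
CPM in each sample of Nfe2l2, Keap1, the glutathione synthesis and recycling genes and the NRF2-induced enzymes Nqo1, Hmox1 and Txnrd1, with horizontal lines at the mean and vertical lines of 1 SD (3 samples per condition, axes from 0). Nfe2l2 and Keap1 overlap in all conditions, and in Gclm, Gsr and Hmox1 the si mH2A1.1 samples spread widely, with replicate 2 among the control values.

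Among the enzymes that remove superoxide and hydrogen peroxide, Prdx1 and Sod3 were called. Prdx1, a peroxiredoxin of the cytosol, was at 265, 261 and 238 CPM in si Ctrl, at 585, 357 and 396 CPM with si mH2A1.1 and at 279, 260 and 268 CPM with si mH2A1.2. The si mH2A1.1 samples were above all others, and si Ctrl and si mH2A1.2 overlapped. Prdx1 had a log2 fold change of 0.81 (SE 0.17, adjusted p = 0.0162) with si mH2A1.1 and 0.08 (SE 0.16, adjusted p = 0.865) with si mH2A1.2. The first was 0.82 (adjusted p = 0.06) without si Ctrl replicate 2 and 0.75 (adjusted p = 0.0599) without si Ctrl replicate 3. Between the knockdowns it was 0.73 (SE 0.17, adjusted p = 0.0123), and 0.70 (adjusted p = 0.0523) without si mH2A1.2 replicate 2. In si mH2A1.1 it was the gene with the highest level per kilobase of exon among the 43, at 146 CPM per kilobase, next to Gstp1 at 137.

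Sod3, the superoxide dismutase that is secreted and binds to the extracellular matrix, was called in all 3 comparisons. It was at 10.1, 10.4 and 7.92 CPM in si Ctrl, at 4.84, 6.47 and 5.53 CPM with si mH2A1.1 and at 24.4, 25.6 and 20.6 CPM with si mH2A1.2. The conditions were fully apart, in the opposite order to Gsta1, whose split of reads is uncertain and whose fall with si mH2A1.2 edgeR did not call. For Sod3 the log2 fold change was -0.75 (SE 0.16, adjusted p = 0.018) with si mH2A1.1, 1.31 (SE 0.16, adjusted p = 0.0065) with si mH2A1.2 and -2.07 (SE 0.16, adjusted p = 0.00013) between the knockdowns. The fall with si mH2A1.1 was not called without si Ctrl replicate 2 or without si mH2A1.1 replicate 1 or 3 (-0.65 to -0.74, adjusted p from 0.0671 to 0.0723). Col1a1, a matrix gene from the fibroblast list, stood in the same order. It was at 268 to 843 CPM with si mH2A1.1, 2108 to 3396 CPM in si Ctrl and 6435 to 9381 CPM with si mH2A1.2. Lum, Dcn and Pdgfra of that list did not stand in this order. Lum had log2 fold changes against si Ctrl of -2.74 in the macroH2A1.1 knockdown and -0.52, not called, in the other. Dcn and Pdgfra had 0.06 and 0.11 in the macroH2A1.1 knockdown, and 0.66 and 0.53 in the other, none called. The part of these markers in the Sod3 result was not tested.

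Sod2, the mitochondrial enzyme, was at 63.5, 63.0 and 78.0 CPM in si Ctrl, at 75.4, 67.1 and 71.4 CPM with si mH2A1.1 and at 42.4, 51.0 and 54.9 CPM with si mH2A1.2. The si mH2A1.2 samples were the lowest 3. Sod2 had a log2 fold change of -0.46 (SE 0.12, adjusted p = 0.0833) in si mH2A1.2 against si Ctrl, with the replicate number as a block it had an adjusted p of 0.0436, and between the knockdowns it was 0.53 (SE 0.12, adjusted p = 0.0131). Sod1, Cat and Prdx6, the cytosolic dismutase, catalase and a peroxiredoxin that acts on phospholipids, had log2 fold changes between -0.21 and 0.27 over the 3 comparisons, none past the threshold. With the replicate number as a block, Cat was lower in si mH2A1.1 than in si mH2A1.2 (-0.21, adjusted p = 0.0461 by edgeR).

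**Figure D5:**
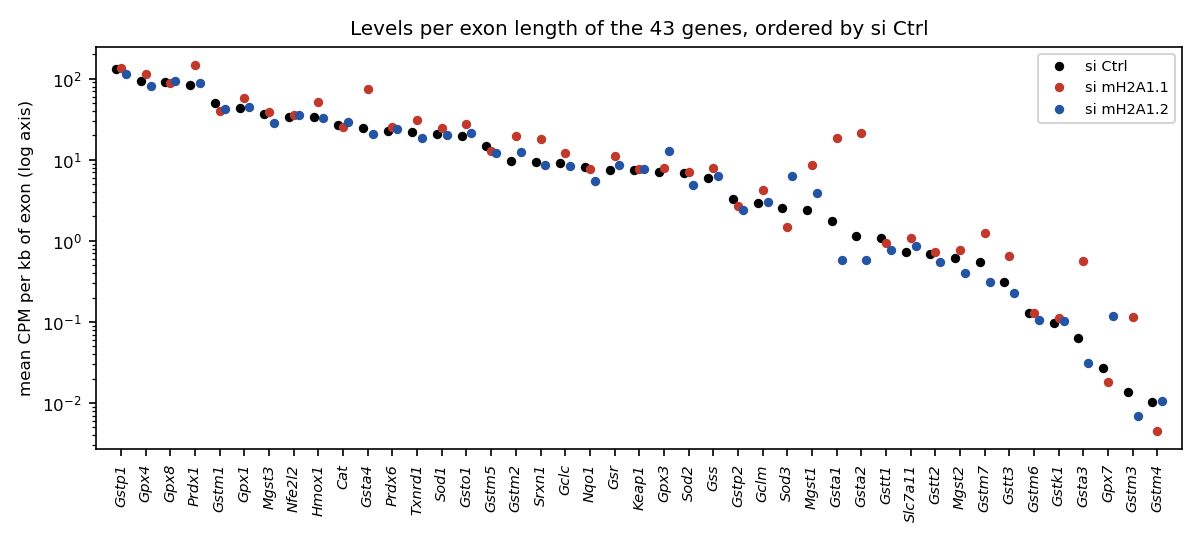
Mean CPM per kilobase of exon of the 43 genes in si Ctrl (black), si mH2A1.1 (red) and si mH2A1.2 (blue) on a log axis, ordered by the si Ctrl level (means of 3 samples). Gstp1 leads at 132 CPM per kilobase in si Ctrl, and Gsta1 and Gsta2 rise from 1.74 and 1.14 to 18.7 and 21.5 with si mH2A1.1.

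The called genes did not rise evenly within si mH2A1.1. Replicate 1 had the highest value in 9 of the 10 genes that were higher and replicate 2 had the lowest in 9, and over all 39 genes replicate 1 was highest in 28 and replicate 2 lowest in 24. Gstm2 was the gene in which replicate 2 was highest. The proliferation marker Mki67 had the same order within si mH2A1.1, at 250, 125 and 184 CPM. It was at 124, 101 and 82.6 CPM in si Ctrl and at 108, 65.1 and 77.2 CPM with si mH2A1.2. Top2a and Ccnb1 of the same marker list also had that order within si mH2A1.1. The other markers of the list did not, as Myf5 was highest in replicate 2 (56.2, 64.5 and 54.1 CPM) and Pax7 lowest in replicate 3 (5.33, 4.50 and 4.24 CPM). Against si Ctrl, Mki67 had a log2 fold change of 0.86 in si mH2A1.1 (adjusted p = 0.0586), and its part in the result was not tested.

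At the stricter limit of an adjusted p below 0.01 and a log2 fold change of 0.8 or more in size, 6 genes were higher with si mH2A1.1 and 0 lower (1 was lower at an unadjusted p below 0.05, Sod3), against 1.31% and 0.491% of all genes. These were Gsta1, Gsta2, Gsta3, Gsta4, Gstm2 and Mgst1, and the same 6 were called in all 15 other settings tried. Gsta3 passed the filter only through the si mH2A1.1 samples. Gsta1 and Gsta2 share reads and are not separate results. With si mH2A1.2 it was Sod3 alone, against 0.128% of all genes higher and 0.0512% lower. Between the knockdowns 5 genes were higher (Gsta1, Gsta2, Gsta3, Gsta4 and Gstm7) and Sod3 was lower, against 3.54% and 2.84% of all genes. The count of 10 genes higher with si mH2A1.1 at the ordinary limit was 6 without si Ctrl replicate 2 or without si Ctrl replicate 3, and 15 without si mH2A1.1 replicate 2. The share of all genes called was not taken for these fits.

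The 43 genes were compared with 101 other genes of the same pathways, of which 100 were in the table and 87 were tested. With si mH2A1.1, 7 of the 87 were higher and 6 lower, with a median log2 fold change of 0.06. These counts changed when single samples were left out, where the share of all genes called was not taken. The number higher was 4 without si Ctrl replicate 1 and 3 without si Ctrl replicate 2 or si mH2A1.1 replicate 1. The number lower was 0 without si Ctrl replicate 2, si mH2A1.1 replicate 1 or si mH2A1.1 replicate 3, it was 2 without si Ctrl replicate 3, and it was 12 without si mH2A1.1 replicate 2. With si mH2A1.2, 3 were higher and 0 lower in edgeR, where 5 were lower at an unadjusted p below 0.05, and DESeq2 called 1 lower. With the replicate block these counts were 6 and 1. Of all 19545 tested genes, 3109 had an unadjusted p below 0.05 there, both directions together. Between the knockdowns 13 were higher and 11 lower, with a median of 0.03. Those higher in si mH2A1.1 were Ggt5, Ggt7, Glo1, Abcc2, Abcc4, Ptgr1, Nqo2, Aldh1l1, Txn2, Txnrd3, Glrx5, Msra and Msrb2. Those lower were Gstz1, Abcc1, Mafk, Bach2, Ephx1, Tkt, Msrb3, Ahr, Arnt, Cyp1b1 and Nox4. Of all tested genes, 6.18% were higher and 4.93% lower in the macroH2A1.1 knockdown, 1.37% and 0.982% in the other, and 12.0% and 10.5% between the knockdowns.

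Of 18 other glutathione enzymes and transporters, 3 were higher with si mH2A1.1 and 2 lower. Abcc2, a pump that exports glutathione conjugates, had a log2 fold change of 4.10 (adjusted p = 0.00713), from 1, 4 and 4 counts in si Ctrl to 83, 16 and 77 counts, with 4, 7 and 5 counts in si mH2A1.2. It passed the filter only through the si mH2A1.1 samples, and a fold against so few counts is uncertain. Ggt5, a gamma-glutamyl transferase at the cell surface, had 1.83 (adjusted p = 0.0124), and Ggct, which degrades gamma-glutamyl peptides, had 0.76 (adjusted p = 0.0321). Gstz1, the zeta-class transferase of tyrosine breakdown, had -0.57 (adjusted p = 0.0146), and Hagh, a glyoxalase, had -0.48 (adjusted p = 0.0428). None of the 18 was called with si mH2A1.2 by edgeR, and at an unadjusted p below 0.05 there was 1 in each direction.

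Of 16 other NRF2-induced genes, Ptgr1 (0.64, adjusted p = 0.027) and Nqo2 (0.59, adjusted p = 0.0102), reductases of lipid aldehydes and quinones, were higher in log2 fold change with si mH2A1.1. Fth1, the ferritin heavy chain that stores iron, was lower (-0.84, adjusted p = 0.0241). Between the knockdowns Ptgr1 and Nqo2 were higher in si mH2A1.1 (0.70 and 0.48) and Ephx1, of the same list, was lower (-1.03, adjusted p = 0.00401 by edgeR). Among 10 partners and regulators of NRF2, Bach2, a repressor that binds related sites, was lower with si mH2A1.1 (-1.29, adjusted p = 0.0189) and also lower than in si mH2A1.2 (-2.31, adjusted p = 0.00062). Of 11 enzymes of the pentose phosphate pathway and of the supply of NADPH, which glutathione reductase and thioredoxin reductase consume, Tkt, of the branch of that pathway that does not itself make NADPH, was lower (-1.13, adjusted p = 0.0178) and the other 10 were not called against si Ctrl. Among 17 thioredoxin, glutaredoxin and methionine sulfoxide enzymes, Msra (0.87, adjusted p = 0.0178) and Msrb1 (0.49, adjusted p = 0.0262) were higher with si mH2A1.1, and Msrb3 (0.51, adjusted p = 0.0365) was higher with si mH2A1.2. Neither of the 2 tested metallothioneins was called in any comparison.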

How the data were processed

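RNA of 9 C2C12 samples (poly(A) selected, single reads of 50 bases, Illumina HiSeq2500) was quantified by the authors with Salmon on the mouse assembly GRCm38 (mm10), and the table of estimated counts per gene that they deposited, not normalized, was rounded and used here. The annotation release is not given in the sources used here. Symbols and positions came from GENCODE M21, which held 52762 of the 52780 gene identifiers. The deposited normalized table was not used.

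Genes were filtered with filterByExpr (minimum count 10), scaled by TMM and tested with the quasi-likelihood test of edgeR 4.0.16 in R 4.3.3 over all 9 samples and 3 contrasts. Scripts were tested on simulated data. Alternatives were DESeq2 1.42.0, the newer form of the edgeR test, DESeq2 size factors, no filter, a replicate block, the compared conditions alone, the stricter limit that the study draws for deregulated genes and leaving out each sample. The study used DESeq2 with the same limit on the adjusted p. Levels per kilobase divide CPM by the exon bases of a gene. Members called in at least 1 contrast and 9 NRF2 pathway genes were given sample by sample, and other pathway genes called against si Ctrl by their fold change. Other pathway genes called between the knockdowns were named, and only a part of them given with values. Gpx3, Gstm1 and Mki67 were added after their values were seen. So were the other markers set beside Mki67, and Col1a1 and the fibroblast markers set beside Sod3. The 43 genes, the lists and the tests were chosen with earlier results of these data known.

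Samples of si mH2A1.2 and si Ctrl with the same number deviated together from their group means (r = 0.331, 0.291 and 0.196 over genes, against -0.267 to 0.036 for different numbers). Such a pairing by number is drawn from the data and not stated in the labels. The main fit does not use it, so every value given without mention of a block is unpaired. For that comparison, blocked values stand beside the results whose call they change. Numbers in the deposited column names also run consecutively over the conditions of each replicate, and no label says what they stand for. In the other comparisons, blocked values are given for the members whose call they change.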

Additional observations from a re-analysis of the deposited data

How the results depend on the processing

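The 6 genes named at the stricter limit, Sod3 with si mH2A1.2, and 10 of the 15 genes higher between the knockdowns were called under all 15 settings that keep the ordinary limit. DESeq2 size factors, the newer edgeR form and the fit of the compared conditions alone moved no count by over 1.5 times. DESeq2 called 13 related genes higher with si mH2A1.1. Among the members it added Gclm and Txnrd1 with si mH2A1.1, and Gclm and Gpx1 between the knockdowns (Gpx1 0.38, adjusted p = 0.0373). For the knockdown of macroH2A1.2 it called 2 members lower, 6 related genes higher and 1 lower. Without a filter, 5 related genes were higher with si mH2A1.2. With the replicate block, 2 members were higher and 1 lower with si mH2A1.2, and 6 related genes were higher and 1 lower. The block changed no other call of a member in that comparison. For the other comparisons same-numbered samples deviated together only weakly (r = 0.084 to 0.098 against si Ctrl and 0.092 to 0.116 between the knockdowns), though each sample correlated best with its own number. There the block gave 13 related genes higher and 14 lower with si mH2A1.1, and 3 members lower between the knockdowns. The members it added were Gstt3, Gss and Txnrd1 (adjusted p = 0.0344, 0.048 and 0.0399 by edgeR) with si mH2A1.1, and Mgst3 higher and Gpx3 and Cat lower (0.0113, 0.0108 and 0.0461) between the knockdowns. At the stricter limit, 1 related gene was higher and 0 lower with si mH2A1.1, 1 was higher in the macroH2A1.2 knockdown, and 3 were higher and 5 lower between the knockdowns, and the members numbered 6 higher and 0 lower, 1 higher, and 5 higher.

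Leaving out 1 sample at a time gave 6 to 15 members higher and 0 to 1 lower with si mH2A1.1, 1 higher and 0 lower every time with si mH2A1.2, and 12 to 19 higher between the knockdowns. Related genes ranged from 3 to 9 higher and 0 to 12 lower with si mH2A1.1, from 1 to 3 higher and 0 to 1 lower with si mH2A1.2, and from 7 to 15 higher and 7 to 16 lower between the knockdowns. The cause of these shifts was not tested. Shares of all tested genes were taken only for the main fit, at the ordinary and the stricter limit. The counts of the other settings therefore have no share to stand against. Signs turned only for differences that were not called. Leaving out samples gave log2 fold changes of -0.28 to 0.14 for Nqo1 and -0.077 to 0.14 for Nfe2l2 in si mH2A1.1 against si Ctrl. In si mH2A1.2 against si Ctrl they were -0.28 to 0.50 for Slc7a11, -0.070 to 0.14 for Gclm, -0.37 to 0.23 for Hmox1, -0.25 to 0.0080 for Srxn1 and -0.0011 to 0.0998 for Keap1. Between the knockdowns they were -0.16 to 0.046 for Nfe2l2 and -0.026 to 0.054 for Keap1. Genes under about 10 counts in every sample (Gstm3, Gstm4, Gpx7) could not be tested at this depth.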

Other observations

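Of 5 tested genes of the aryl hydrocarbon receptor list, Ahr, Arnt and Cyp1b1 were lower in si mH2A1.1 than in si mH2A1.2. Cyp1b1, a cytochrome P450 induced by the receptor, was at 31.8, 37.3 and 35.3 CPM in si Ctrl, at 11.5, 30.3 and 20.0 CPM with si mH2A1.1 and at 120, 105 and 87.2 CPM with si mH2A1.2. Against si Ctrl the log2 fold change of Cyp1b1 was 1.58 in si mH2A1.2 (adjusted p = 0.0218, edgeR) and -0.76 in si mH2A1.1 (adjusted p = 0.0962). Ahr, the receptor, had 0.75 (adjusted p = 0.103) and -0.55 (adjusted p = 0.113), and Arnt, its partner, was lower with si mH2A1.1 (-0.57, adjusted p = 0.027).

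Of 8 tested sources of reactive oxygen, Nox4, an oxidase that makes hydrogen peroxide, was higher with si mH2A1.2, at 12.6, 10.6 and 10.7 CPM against 4.31, 5.28 and 5.08 CPM in si Ctrl (log2 fold change 1.21, adjusted p = 0.00836, edgeR). With si mH2A1.1 it was at 5.31, 5.78 and 6.98 CPM (0.30, adjusted p = 0.227).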
